A study of Mus musculus with 18 samples.

Results

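The data compare 3 mouse tumours from animals that had another tumour destroyed by radiofrequency ablation with 3 tumours from animals that had it destroyed by cryoablation, 6 of the 18 tumours sequenced. No ablation touched the tumours measured, and none of these 6 tumours came from an animal given the antibody against PD-1 used elsewhere in the study. The tumours were chosen by their treatment labels alone. The other 12 tumours, 3 in each group, came after cryoablation or radiofrequency ablation with anti-PD-1, and after cryo-thermal therapy without and with it. All 18 shared the design of a distant ablation, and an animal with no ablation was not analysed here, so a difference can be read only as one ablation against the other. The labels give neither the tumour line, nor the mouse strain and age, nor the day of removal. They also do not say if tumours with the same treatment are from different animals or experiments, so a p-value here reflects no more than how much these particular tumours varied, and that variation may be technical.

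Radiofrequency ablation heats tissue with an alternating current until its proteins coagulate, whereas cryoablation kills cells by ice formation and thawing and leaves more protein in its native form. Material released from the dying tumour can reach lymph nodes and the circulation, and both methods have been studied for whether the immune response that follows acts on tumours elsewhere in the body. Interferons are cytokines of such responses: type I interferon and interferon gamma switch on antiviral genes, antigen presentation and chemokines that attract T cells.

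Values are FPKM, fragment counts scaled by gene length and by how many fragments the library mapped, and fold changes are on the log2(FPKM + 1) scale, on which the change of a gene with a low FPKM is smaller than the ratio of its values. Of 26538 genes 12587 had a mean of at least 0.5 FPKM over the 18 tumours and were tested. Summed FPKM ran from 412878 to 433524 over the 6 tumours. Pearson r across genes was 0.996 to 0.997 between the cryoablation tumours and 0.996 between the first and the second radiofrequency tumour, each above every pair across the groups (0.992 to 0.996). The third radiofrequency tumour had 0.993 and 0.991 with the other two, within or below the range across the groups. Of 13 epithelial carcinoma markers 4 passed the filter, and Tyr, a defining enzyme of pigment cells, was at 0 in all 6 tumours, so neither set of markers gives the tumour a type. Summed FPKM of 21 fibroblast and matrix genes was 3684 to 5107.

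A single gene passed the test at an adjusted p under 0.05, 0.00794% of the genes tested, and it was the long non-coding RNA 5430416N02Rik (NCBI gene 100503199), with the synonym Adapt33, a name given to a transcript induced by oxidative stress in cultured cells. It stood at 19.7, 20.9 and 19.9 FPKM after cryoablation and at 34.2, 35.6 and 33.8 FPKM after radiofrequency ablation. Its log2 fold change was 0.75 (SE 0.09, adjusted p = 0.00394), with all 3 radiofrequency tumours above all 3 cryoablation tumours, and its adjusted p was 0.000671 to 0.0469 over every alternative fit, including those that left out any 1 of the 6 tumours. The cryoablation tumours stood apart, since all the other 15 tumours of the study, whatever their treatment, had more of this RNA. The radiofrequency tumours were near the top, with only the third radiofrequency plus anti-PD-1 tumour above them, at 38.4 FPKM. The gene lies on chromosome 5 between Sec31a, for a coat protein of transport vesicles, and Lin54, for a DNA-binding subunit of a cell cycle complex. Sec31a was at 53.2 to 58.1 FPKM and Lin54 at 6.38 to 7.22 FPKM over the 6 tumours, with log2 fold changes of -0.07 (SE 0.07) and 0.05 (SE 0.12). The 300 bases around its start in RefSeq (GRCm38.p6, minus strand) are shown because it is the gene the test called, and they hold none of the 4 motifs searched in the windows of the gene groups described next, so no base is in capitals.
5430416N02Rik, chr5:100429486-100429785: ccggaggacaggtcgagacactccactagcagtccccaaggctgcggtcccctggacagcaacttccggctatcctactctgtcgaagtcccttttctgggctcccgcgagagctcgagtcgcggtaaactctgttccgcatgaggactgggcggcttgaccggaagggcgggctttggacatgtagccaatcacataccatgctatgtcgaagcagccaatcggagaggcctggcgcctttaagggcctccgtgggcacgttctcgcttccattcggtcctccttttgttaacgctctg

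No gene was lower after radiofrequency ablation at an adjusted p under 0.05 with limma. At an unadjusted p under 0.05 there were 1902 genes, 15.1% of those tested, of which 888 (7.05%) were higher and 1014 (8.06%) were lower after radiofrequency ablation. For 1332 genes (10.6%) all 3 radiofrequency tumours were above all 3 cryoablation tumours, and for 1533 (12.2%) all 3 were below. These shares are the background for each group of genes that follows, and apart from 5430416N02Rik no gene named passed the adjusted threshold in the fit to all 18 tumours. The median log2 fold change of all genes was -0.01. An exact permutation test of 3 tumours against 3 cannot give a 2-sided p under 0.1 for a single gene.

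Across the study it was more often the cryoablation tumours that stood apart. All 3 cryoablation tumours were above the other 15 tumours for 470 genes (3.73%) and below them for 351 (2.79%). For the 3 radiofrequency tumours the counts were 19 (0.151%) and 37 (0.294%). Cryo-thermal therapy plus anti-PD-1 had 316 (2.51%) and 287 (2.28%), and the remaining groups had 6 to 27 in each direction (0.0477% to 0.215%). Whether these counts follow the treatment or the handling of a group of samples cannot be told apart, since the labels name no batch.

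The 24 other genes with the smallest p-values and no overlap, 12 in each direction, had adjusted p-values of 0.0995 to 0.106 and log2 fold changes of 0.32 to 1.61 on the higher side and of -2.94 to -0.26 on the lower side. In 8 of the 12 on the higher side the cryoablation tumours were below all the other 15 tumours, and in 6 of the 12 on the lower side they were above them. Hsph1, Chordc1, Cebpg, Trib3 and Cry1 are described with their groups. Of the others on the higher side, Stk40, a pseudokinase that limits NF-kappa B signalling, was at 4.82, 5.29 and 4.83 FPKM after cryoablation and at 6.62, 7.61 and 7.73 FPKM after radiofrequency ablation. Stbd1, which tethers glycogen to membranes, was at 1.18, 2.59 and 1.30 FPKM against 5.20, 4.36 and 11.2 FPKM. Snhg12, a small nucleolar RNA host gene, was at 71.1, 76.2 and 60.3 FPKM against 113, 103 and 87.9 FPKM. In each of these genes the groups did not overlap, and the log2 fold changes were 0.47 (SE 0.09), 1.50 (SE 0.30) and 0.54 (SE 0.11). The rest on the higher side were Atp6v0b, a subunit of the proton pump of lysosomes (0.58), Cystm1 (0.76), Tnfrsf25, a death receptor of T cells (0.63), and Ccdc137 (0.32).

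On the lower side the liver genes Alb, Apoa1 and Apoa2 and the RNA-binding protein gene Cirbp are described with their groups. Micu2, a regulator of the calcium channel of mitochondria, was at 44.1, 41.8 and 43.5 FPKM after cryoablation and at 36.1, 35.6 and 35.9 FPKM after radiofrequency ablation, a log2 fold change of -0.26 (SE 0.05). Its spread within each group was small beside the gap between them. Echdc3, for a mitochondrial enzyme of the enoyl-CoA hydratase family, had -0.36 (SE 0.06), Syne3, a nuclear envelope linker, -0.51 (SE 0.10), and Fut8, which adds core fucose to glycoproteins, -0.39 (SE 0.08). Wdr19, a component of transport in cilia, had -0.44 and Mtmr14, a phosphoinositide phosphatase, -0.32. The neuropeptide gene Qrfp had -0.62 and Fam149a -0.29.

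**Figure D1:**
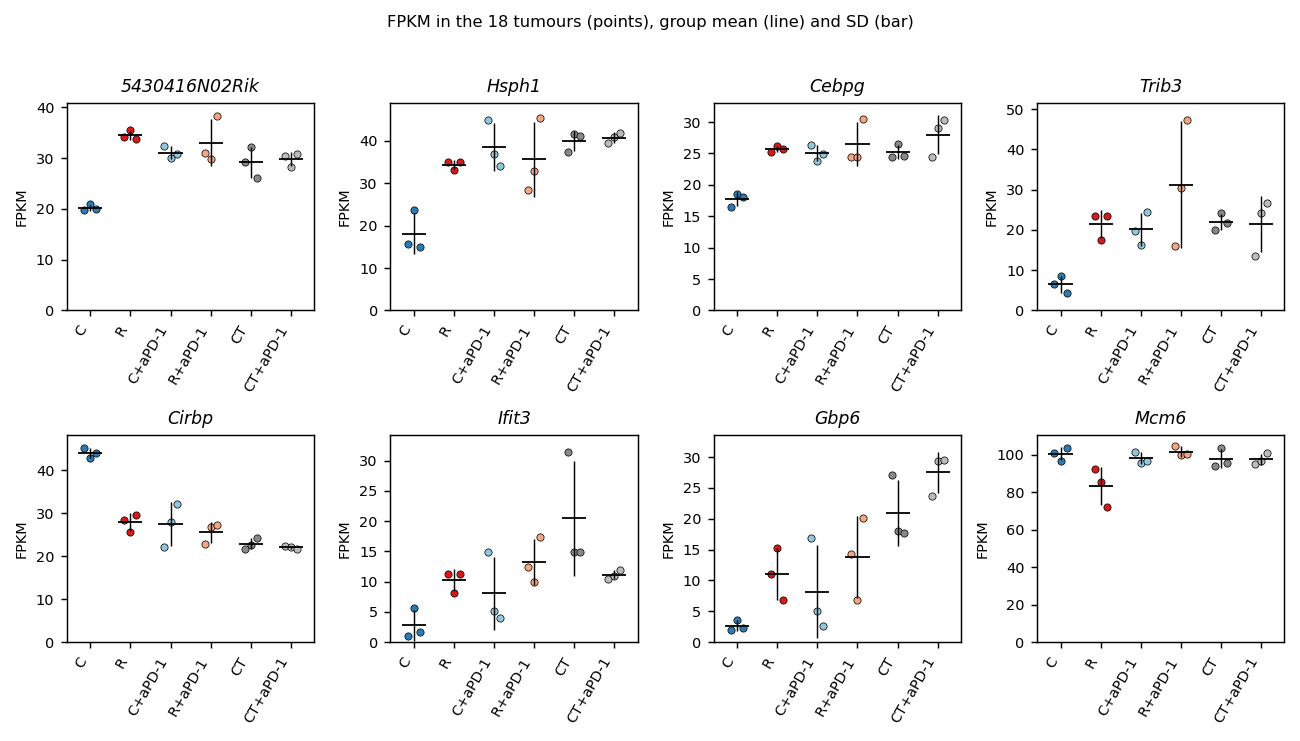
FPKM (vertical axes, from 0) of 8 genes in each of the 18 tumours (points), with the group mean (line) and SD (bar); C is cryoablation, R radiofrequency ablation, CT cryo-thermal therapy and aPD-1 the antibody against PD-1. The 3 cryoablation tumours lie below all the other 15 for 5430416N02Rik, Hsph1, Cebpg and Trib3 and above them for Cirbp, while the 3 radiofrequency tumours lie among the others for these genes. For 5430416N02Rik the radiofrequency tumours lie near the top, with only the third radiofrequency plus anti-PD-1 tumour above them, at 38.4 FPKM.

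Genes of the heat shock response were higher after radiofrequency ablation in point estimate across the list. This response, driven by the factor HSF1, makes chaperones that refold or hold damaged proteins. Of 26 tested members 26 had a log2 fold change above 0, with a median of 0.23, and 15 had an unadjusted p under 0.05, all on the higher side, beside 7.05% of all genes. Leaving out any 1 of the 6 tumours gave 10 to 16. In 13 of the 26 the groups did not overlap on the higher side. Hsph1, a large chaperone of the HSP110 family, was at 15.7, 23.8 and 14.9 FPKM after cryoablation and at 34.9, 33.1 and 35.1 FPKM after radiofrequency ablation. The radiofrequency tumours lay close together, and the second cryoablation tumour lay nearest to them. The log2 fold change was 0.92 (SE 0.16, adjusted p = 0.0995), and without that tumour the adjusted p was 0.00903. Chordc1, a partner of HSP90, was at 23.3, 23.1 and 20.6 FPKM against 29.7, 29.2 and 30.5 FPKM (log2 fold change 0.40, SE 0.08). Changes were smaller in the abundant members: Hspa8, the constitutive HSP70, had 0.23 (SE 0.07), Hsp90aa1 0.24 (SE 0.11), the adaptor Stip1 0.26 (SE 0.07) and the collagen chaperone Serpinh1 0.28 (SE 0.08). With anti-PD-1, in tumours that are not shared with this comparison, the median of the list was -0.02, and Hsph1 had -0.13 (SE 0.16).

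A heat shock element, the binding sequence of HSF1, was searched as TTC, any 2 bases, GAA, any 2 bases and TTC, on both strands, in windows from 250 bases before to 50 after each start. It was in a window of 4 of the 22 heat shock genes that had one (Hsph1, Hspd1, Hspe1 and Chordc1) and of 179 of 27025 genes in all (0.662%). The window of Hsph1 from RefSeq (GRCm38.p6, minus strand) is shown because the gene had the smallest p of the list. The capitals mark the element, from 36 to 48 bases after the start.
Hsph1, chr5:149636287-149636586: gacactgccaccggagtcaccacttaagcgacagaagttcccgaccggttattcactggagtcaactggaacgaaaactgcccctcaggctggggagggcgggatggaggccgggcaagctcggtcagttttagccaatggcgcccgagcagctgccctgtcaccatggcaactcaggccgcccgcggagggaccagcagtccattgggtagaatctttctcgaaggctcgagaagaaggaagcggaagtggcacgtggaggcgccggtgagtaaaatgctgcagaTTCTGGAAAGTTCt

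Cirbp encodes a cold-inducible RNA-binding protein whose mRNA is known to increase at lower temperature and to fall with heat. It was at 45.3, 42.9 and 44.1 FPKM after cryoablation and at 28.5, 25.6 and 29.7 FPKM after radiofrequency ablation. The groups were well apart, and the log2 fold change was -0.64 (SE 0.10, adjusted p = 0.0995, with a range of 0.0094 to 0.395 over the alternative fits), and the cryoablation tumours were above all the other 15. Rbm3, the other well-known gene of this kind, was at 174, 149 and 211 FPKM against 160, 138 and 107 FPKM, and these groups overlapped (log2 fold change -0.40, SE 0.21). The list of cold-inducible genes also held Rbmx and Srsf5, with log2 fold changes of 0.03 and -0.05. Of its 4 genes 1 had an unadjusted p under 0.05, and 2 without the second cryoablation or the first radiofrequency tumour. A sequence reported as a mild-cold responsive element, TCCCCGCC with its reverse complement GGCGGGGA, is in a window of 6.19% of all genes and in that of 1 of the 3 cold-inducible genes that had one. The window of Cirbp (GRCm38.p6, plus strand) is shown with that element in capitals, 247 to 240 bases before the start. The window of Trib3, printed next, holds this sequence as well.
Cirbp, chr10:80167589-80167888: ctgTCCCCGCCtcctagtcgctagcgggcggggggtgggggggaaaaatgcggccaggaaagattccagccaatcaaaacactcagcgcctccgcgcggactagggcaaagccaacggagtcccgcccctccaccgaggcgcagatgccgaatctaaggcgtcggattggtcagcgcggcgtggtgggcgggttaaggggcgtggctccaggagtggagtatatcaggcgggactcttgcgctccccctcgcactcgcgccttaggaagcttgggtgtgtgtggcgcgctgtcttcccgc

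Targets of the integrated stress response were also higher in point estimate after radiofrequency ablation. In this response, kinases that sense missing amino acids, unfolded protein, haem shortage or double-stranded RNA slow translation and raise the factor ATF4, which drives genes for amino acid supply. All 33 tested members had a log2 fold change above 0, with a median of 0.47, and 19 had an unadjusted p under 0.05, 15 to 21 when any 1 of the 6 tumours was left out. In 19 the groups did not overlap. Atf4 itself was at 196, 197 and 183 FPKM after cryoablation and at 314, 269 and 253 FPKM after radiofrequency ablation (log2 fold change 0.53, SE 0.11, adjusted p = 0.106). Trib3, a pseudokinase that feeds back on ATF4, was at 6.55, 8.61 and 4.34 FPKM against 23.5, 17.6 and 23.4 FPKM (log2 fold change 1.61, SE 0.32, adjusted p = 0.106). The values of both genes did not overlap between the groups, and in both the cryoablation tumours were below all the other 15. Cebpg, a partner of ATF4, was at 16.5, 18.6 and 18.1 FPKM against 25.2, 26.2 and 25.7 FPKM (log2 fold change 0.51, SE 0.09). Atf5, a related factor, had 1.00 (SE 0.24), and Nupr1, an abundant stress-induced chromatin protein, had 0.36 (SE 0.17).

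The element bound by ATF4 with C/EBP partners was searched as TGATGNAA and its reverse complement TTNCATCA. It was in a window of 10 of the 30 targets that had one, Trib3 and Nupr1 among them, and of 4.51% of all genes. The window of Trib3 (GRCm38.p6, minus strand) is shown because the gene had the largest change of those with the smallest p. Its element, in capitals, lies 14 to 21 bases after the start.
Trib3, chr2:152344011-152344310: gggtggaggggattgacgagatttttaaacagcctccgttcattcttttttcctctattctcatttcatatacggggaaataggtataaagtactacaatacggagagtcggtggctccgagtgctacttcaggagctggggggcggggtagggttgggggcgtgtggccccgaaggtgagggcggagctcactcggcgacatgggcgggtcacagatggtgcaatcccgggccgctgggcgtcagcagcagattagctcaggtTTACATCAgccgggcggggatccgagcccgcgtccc

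The aminoacyl-tRNA synthetases, which charge tRNAs with amino acids and many of which are ATF4 targets, had 6 of 18 members on the higher side at an unadjusted p under 0.05 and a median of 0.16. That count was 3 without the first or the third cryoablation tumour or the first radiofrequency tumour. Nars was at 117, 115 and 110 FPKM after cryoablation and at 151, 129 and 138 FPKM after radiofrequency ablation. Aars had a log2 fold change of 0.41 (SE 0.14) and Sars of 0.34 (SE 0.12), and neither overlapped between the groups. Chaperones of the endoplasmic reticulum, which the unfolded protein response induces, had 12 of 18 members on the higher side at an unadjusted p under 0.05, a median of 0.24, and 8 to 12 members when 1 tumour was left out. The median was 0.15 without the third radiofrequency tumour. Hspa5, the main HSP70 of this compartment, was at 292, 307 and 299 FPKM against 384, 340 and 445 FPKM (log2 fold change 0.37, SE 0.08, adjusted p = 0.111). The cryoablation tumours were close together and the third radiofrequency tumour was the highest. Hyou1 had 0.32 (SE 0.08), the lectin chaperone Calr 0.32 (SE 0.08) and Hsp90b1 0.24 (SE 0.06). The cryoablation tumours were below all the other 15 for Hspa5, Hyou1, Calr and Hsp90b1.

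The largest list medians on the higher side were those of interferon-induced genes. Of 27 type I interferon genes all had a log2 fold change above 0, with a median of 1.31. At an unadjusted p under 0.05 there were 25, all on the higher side, and 23 to 25 when any 1 of the 6 tumours was left out. In 26 of the 27 the groups did not overlap. Ifit3, an antiviral protein that binds its relative IFIT1, was at 0.936, 5.71 and 1.71 FPKM after cryoablation and at 11.3, 8.13 and 11.3 FPKM after radiofrequency ablation. The second cryoablation tumour was the highest of its group, as it was for each gene of this list named here. The log2 fold change was 1.76 (SE 0.44, adjusted p = 0.138, and 0.0248 to 0.454 over the alternative fits). Ifit3 has a near-identical neighbour, Ifit3b, which had 1.31 (SE 0.28), and how the counting split their shared reads is not given in the sources used here.

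Ifit1, which binds viral RNA ends, was at 0.999, 3.76 and 1.66 FPKM against 9.22, 7.24 and 7.70 FPKM (log2 fold change 1.62, SE 0.35, adjusted p = 0.106). Without the second cryoablation tumour Ifit1, Ifit3 and Ifit3b passed the adjusted threshold, and of the 20 genes called in that fit 15 were higher and 5 lower after radiofrequency ablation. Isg15, a ubiquitin-like modifier, was at 5.52, 11.9 and 6.67 FPKM against 29.8, 27.5 and 18.4 FPKM (log2 fold change 1.57, SE 0.42). Rtp4 had 1.44 (SE 0.34), Oasl2 1.36 (SE 0.34) and Bst2, which tethers budding viruses to the cell, 1.39 (SE 0.38).

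The interferon-stimulated response element was searched as TTTC, any 2 bases and TTTC, on both strands. It was in a window of 13 of the 21 type I interferon genes that had one, among them Ifit1, Ifit3, Ifit3b, Isg15 and Bst2, and of 3.99% of all genes. The window of Ifit3 (GRCm38.p6, plus strand) is shown because the gene was one of those with the largest change, and it holds the element at 2 places, in capitals, 156 to 147 and 122 to 113 bases before the start.
Ifit3, chr19:34583279-34583578: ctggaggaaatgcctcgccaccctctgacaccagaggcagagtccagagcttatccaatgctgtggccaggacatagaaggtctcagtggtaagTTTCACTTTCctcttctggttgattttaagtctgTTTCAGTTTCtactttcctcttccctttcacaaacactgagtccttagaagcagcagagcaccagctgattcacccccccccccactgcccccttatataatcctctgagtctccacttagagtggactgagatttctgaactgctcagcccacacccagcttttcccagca

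Of 26 genes induced by interferon gamma all had a log2 fold change above 0, with a median of 1.22, and 18 had an unadjusted p under 0.05. This count moved with single tumours, to 7 without the second radiofrequency tumour and 10 without the first cryoablation tumour, and it was 23 without the third radiofrequency tumour. Gbp6, a guanylate-binding protein that attacks vacuoles of microbes, was at 1.91, 3.61 and 2.32 FPKM after cryoablation and at 11.0, 15.3 and 6.86 FPKM after radiofrequency ablation (log2 fold change 1.70, SE 0.46, adjusted p = 0.152). Gbp9 had 1.24 (SE 0.35), Irgm2, of the immunity-related GTPases, 1.53 (SE 0.48) and Gbp4 1.69 (SE 0.56), and these 4 genes did not overlap between the groups. Iigp1, another GTPase of this family, was at 4.12, 9.74 and 9.78 FPKM against 46.2, 53.4 and 12.7 FPKM (log2 fold change 1.96, SE 0.67). The third radiofrequency tumour was well below the other two, and for Gbp2 and Irf1 it overlapped with the cryoablation tumours. Gbp2 was at 27.7, 46.2 and 49.0 FPKM against 135, 171 and 31.6 FPKM, and Irf1, a transcription factor of the pathway, at 29.8, 36.9 and 32.7 FPKM against 59.9, 75.0 and 32.7 FPKM. Guanylate-binding proteins and these GTPases are families of similar genes that can share reads.

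Cxcl9 and Cxcl10, chemokines that attract T cells through CXCR3, did not go together. Cxcl9 was at 2.67, 4.75 and 5.58 FPKM after cryoablation and at 16.9, 10.7 and 22.5 FPKM after radiofrequency ablation, with no overlap (log2 fold change 1.72, SE 0.48, adjusted p = 0.154). Cxcl10 was at 176, 141 and 190 FPKM against 157, 259 and 172 FPKM and overlapped (log2 fold change 0.19, SE 0.43), and its direction turned to -0.03 without the second radiofrequency tumour. Of 26 chemokines 4 had an unadjusted p under 0.05 on the higher side, Cxcl9 and the membrane-bound Cx3cl1 (0.53, SE 0.16) among them, and 1 on the lower side. This was the neutrophil attractant Cxcl1, at 54.8, 66.7 and 63.0 FPKM against 52.3, 27.5 and 13.0 FPKM (log2 fold change -1.17, SE 0.46), and it was above all the other 15 tumours after cryoablation. Without the first cryoablation tumour 2 were on the higher and 3 on the lower side, and without the first radiofrequency tumour 3 were on the lower side. The median of the chemokines was 0.00. Ccl5, the chemokine in the study's title, was at 11.2, 2.57 and 2.95 FPKM against 4.05, 3.97 and 1.46 FPKM. The first cryoablation tumour was alone in its high value, and the log2 fold change of -0.49 (SE 0.36, adjusted p = 0.53) became 0.07 without it.

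Antigen presentation genes followed the interferon lists in direction. Of 17 genes of MHC class I presentation all had a log2 fold change above 0, with a median of 0.60, and 10 had an unadjusted p under 0.05. The count was 3 without the second radiofrequency tumour, 5 without the first radiofrequency or the first cryoablation tumour, and 15 without the third radiofrequency tumour. B2m, the light chain of class I molecules, was at 2183, 2534 and 2179 FPKM after cryoablation and at 3627, 3829 and 3031 FPKM after radiofrequency ablation (log2 fold change 0.60, SE 0.19, adjusted p = 0.17). Psmb9, a subunit of the immunoproteasome that cuts proteins for class I, was at 10.0, 15.9 and 13.4 FPKM against 40.3, 60.6 and 21.5 FPKM (log2 fold change 1.47, SE 0.48). The groups did not overlap in either gene, with the third radiofrequency tumour the lowest of its group. The heavy chain genes H2-K1 and H2-T23, whose reads can be shared with their relatives, had 0.74 (SE 0.26) and 1.11 (SE 0.36).

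MHC class II presents peptides to CD4 T cells on dendritic cells, macrophages and B cells. Of 9 tested genes 8 had an unadjusted p under 0.05 on the higher side, and 4 did without the first cryoablation or the second radiofrequency tumour and 5 without the third cryoablation tumour. The median was 0.74, and 0.41 without the second radiofrequency tumour. Cd74, the invariant chain, was at 77.3, 138 and 95.7 FPKM after cryoablation and at 219, 550 and 178 FPKM after radiofrequency ablation (log2 fold change 1.45, SE 0.45, adjusted p = 0.168). H2-Aa, a class II alpha chain, was at 43.2, 68.8 and 55.4 FPKM against 115, 313 and 94.5 FPKM (log2 fold change 1.44, SE 0.44). The second radiofrequency tumour was the highest by far in both genes. H2-Ab1 had 1.46 (SE 0.46) and H2-Eb1 1.59 (SE 0.49), and in all these class II genes the cryoablation tumours were below the other 15.

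**Figure D2:**
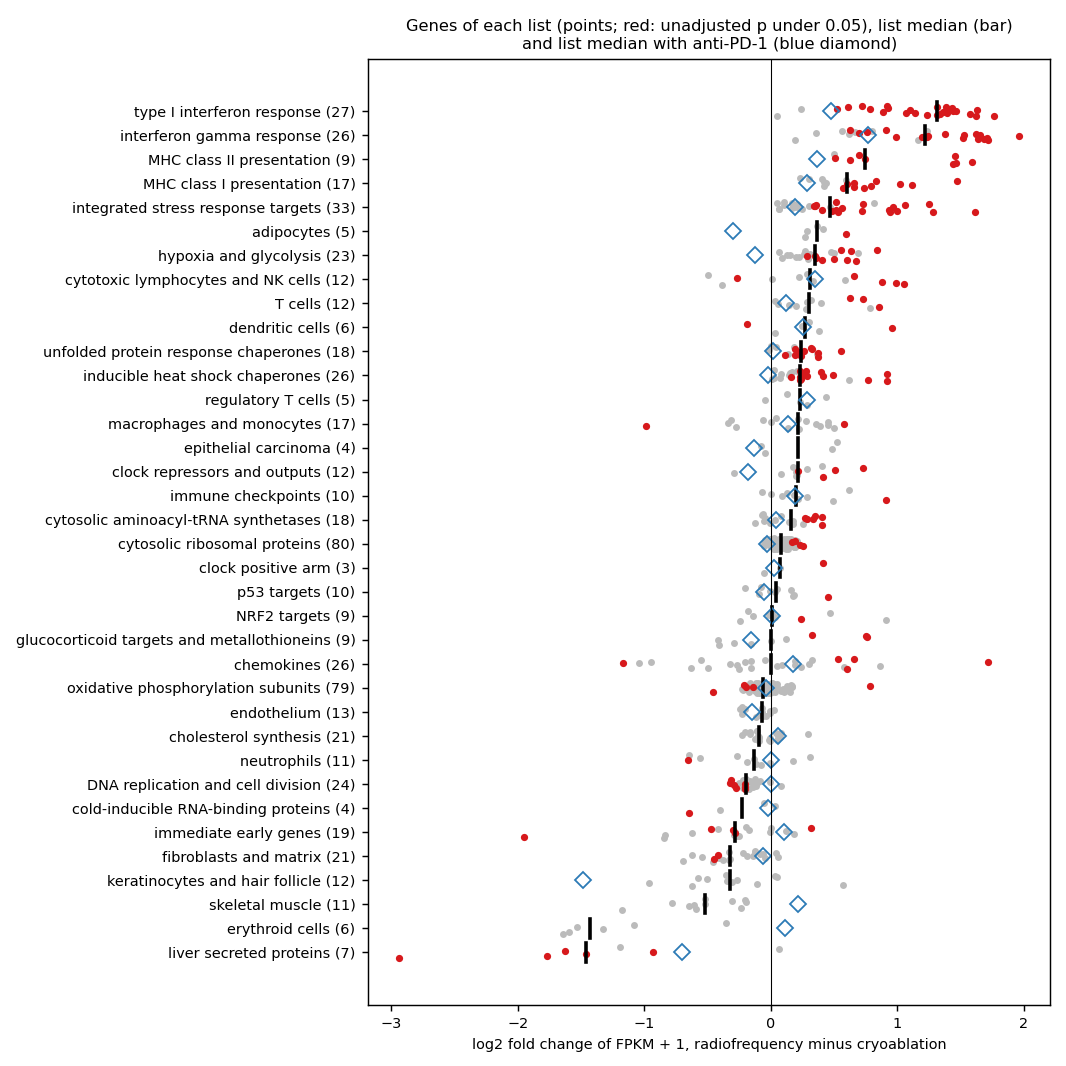
Log2 fold change of FPKM + 1, radiofrequency minus cryoablation (horizontal axis), of each tested gene (points, red where the unadjusted p was under 0.05) in each list of at least 3 tested genes (number in brackets), with the list's median (bar) and its median with anti-PD-1 in separate tumours (blue diamond). The interferon lists have the highest medians, 1.31 and 1.22, and the liver list the lowest, -1.46, which was -0.89 over its genes with no filter on low values.

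T cell genes were at low levels, with higher sums in the 3 radiofrequency tumours. Summed FPKM of 15 T cell genes was 3.34, 4.66 and 4.82 after cryoablation and 7.12, 15.4 and 8.90 after radiofrequency ablation. The second radiofrequency tumour had the highest sum, and it was the highest for interferon gamma and MHC class II genes. The third was the lowest of its group for the interferon and MHC lists, with a T cell sum of 8.90 beside 7.12 in the first. In bulk tumours fewer cells of a type and less RNA per cell cannot be told apart, and the part of T cells in the interferon and MHC values was not tested. Of the 15 genes all had a higher mean after radiofrequency ablation and 7 did not overlap, beside 6.64% of all genes of the table. Of the 12 that were tested 3 had an unadjusted p under 0.05, and 0 to 2 did when any 1 of the 6 tumours was left out. Cd8a, the co-receptor of killer T cells, was at 0.15, 0.246 and 0.278 FPKM after cryoablation and at 0.771, 1.67 and 0.744 FPKM after radiofrequency ablation (log2 fold change 0.72, SE 0.33, adjusted p = 0.323). The groups did not overlap, and the cryoablation tumours were below all the other 15. Cd3e, of the T cell receptor complex, had 0.79 (SE 0.38), Cd3g 0.85 (SE 0.39) and Cd8b1 0.63 (SE 0.28). Cd4 was at 0.0978, 0.237 and 0.183 FPKM against 0.232, 0.564 and 0.611 FPKM, and its groups overlapped.

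Genes of cytotoxic lymphocytes and NK cells had 4 of 12 tested members on the higher side at an unadjusted p under 0.05 and 1 on the lower side. No member on the higher side remained at that level without the first cryoablation or the second radiofrequency tumour, 1 did without the second cryoablation tumour, and 2 did without the first radiofrequency tumour. On the lower side there were 3 without the second cryoablation tumour. Prf1, the pore protein of killer cells, was at 1.70, 1.45 and 2.92 FPKM after cryoablation and at 5.30, 5.53 and 3.92 FPKM after radiofrequency ablation (log2 fold change 0.99, SE 0.38, adjusted p = 0.25). Gzmb, the protease that enters through this pore, was at 3.35, 3.03 and 6.16 FPKM against 8.99, 14.4 and 6.21 FPKM (log2 fold change 1.05, SE 0.47). For Gzmb the highest cryoablation and the lowest radiofrequency tumour were nearly level. Nkg7, of cytotoxic granules, had 0.88 (SE 0.37) and Xcl1, a chemokine for cross-presenting dendritic cells, 0.65 (SE 0.28), while the factor Eomes had -0.27 (SE 0.10). Gzma, another granzyme gene, was at 8.92, 0.813 and 5.81 FPKM against 3.12, 3.81 and 1.75 FPKM and overlapped (log2 fold change -0.39). Of the 12 tested members 9 had a log2 fold change above 0 and 3 under 0 (Gzma, Eomes and Ccl5), with a median of 0.31. Ifng was at 0.108, 0 and 0.0436 FPKM against 0.30, 0.35 and 0.0432 FPKM and overlapped, although the genes that interferon gamma induces had a median of 1.22.

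Of 10 immune checkpoint genes 1 had an unadjusted p under 0.05. It was Cd274, which encodes PD-L1 and is itself induced by interferons, at 2.21, 3.59 and 3.26 FPKM after cryoablation and at 6.52, 7.83 and 5.26 FPKM after radiofrequency ablation (log2 fold change 0.91, SE 0.37, adjusted p = 0.265). Its unadjusted p was above 0.05 without the first cryoablation or the first or second radiofrequency tumour. Pdcd1, for PD-1, was at 0.135, 0.261 and 0.205 FPKM against 0.456, 1.12 and 0.541 FPKM and did not overlap (log2 fold change 0.49, SE 0.28).

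Myeloid genes had no shared direction. Of 17 macrophage and monocyte genes 1 was on the higher and 1 on the lower side at an unadjusted p under 0.05, the median was 0.22, and the summed FPKM was 1305 to 1886 after cryoablation and 1337 to 2230 after radiofrequency ablation. With 1 tumour left out there were 0 to 8 on the higher side, the 8 without the first radiofrequency tumour, and 0 to 2 on the lower side. The median was 0.00 without the third radiofrequency tumour, 0.43 without the first, 0.12 without the second and 0.10 without the second cryoablation tumour. Fcgr1, a high-affinity antibody receptor that interferon gamma induces, was at 6.31, 5.87 and 7.35 FPKM against 9.18, 12.1 and 9.48 FPKM (log2 fold change 0.58, SE 0.23). Cd163, a haemoglobin scavenger receptor of resident macrophages, was at 4.45, 1.58 and 3.44 FPKM against 0.403, 0.669 and 2.43 FPKM (log2 fold change -0.99, SE 0.39). The integrin gene Itgam had 0.04 (SE 0.18), with a direction that turned in 3 alternative fits. Of 6 tested dendritic cell genes 5 had a log2 fold change above 0 and 1 under 0, with a median of 0.27. The median was 0.16 to 0.39 with 1 tumour left out, and 0.04 over the list's 12 genes with no filter. At an unadjusted p under 0.05, 1 was on the higher side, the integrin gene Itgax (0.95, SE 0.36). At that level 1 was on the lower side, the actin-bundling gene Fscn1 (-0.19, SE 0.08). The macrophage elastase Mmp12 was at 4.75, 24.9 and 10.3 FPKM after cryoablation and at 38.6, 32.2 and 85.6 FPKM after radiofrequency ablation, with the largest change on the higher side of any named gene (log2 fold change 2.03, SE 0.60, adjusted p = 0.159). Of 11 tested neutrophil genes 9 had a log2 fold change under 0, with a median of -0.13. This median ran from -0.28 to 0.13 when any 1 of the 6 tumours was left out. At an unadjusted p under 0.05, 1 was on the lower side, the protease Mmp9 (-0.65, SE 0.26), and none on the higher side.

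**Figure D3:**
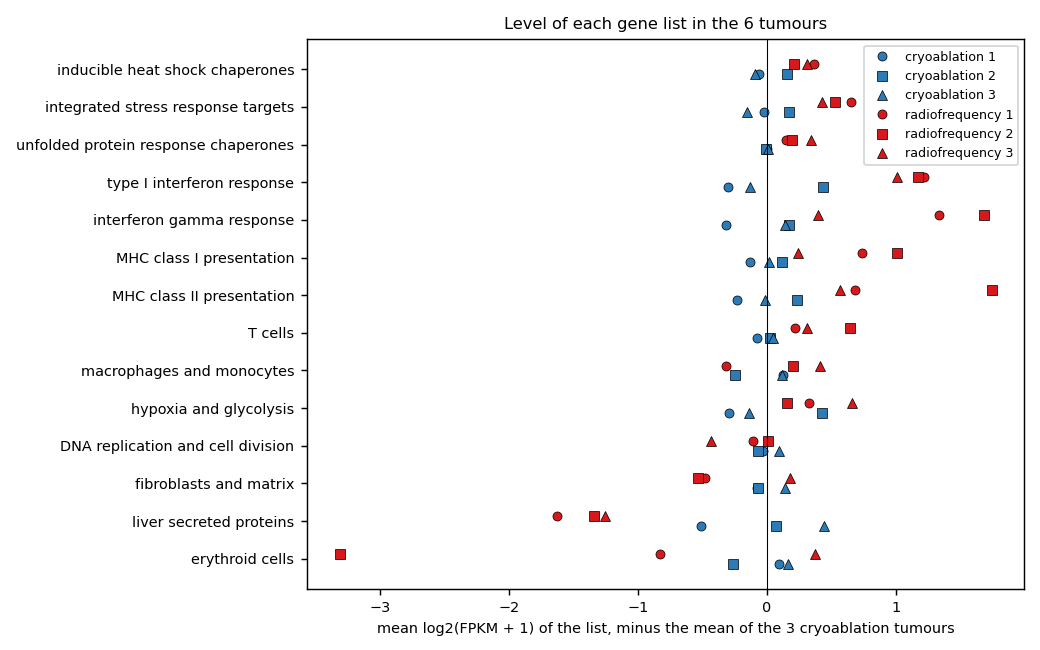
Mean log2(FPKM + 1) of the tested genes of 14 lists in each of the 6 tumours (blue cryoablation, red radiofrequency ablation, shapes for the replicate), as the difference from the mean of the 3 cryoablation tumours (horizontal axis). The groups are separate for the stress, interferon, MHC and liver lists, the third radiofrequency tumour is the lowest of its group for the interferon and MHC lists, and the second lies far below the other tumours for erythroid genes.

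Most of the largest changes on the lower side were in genes of liver plasma proteins, which were at low levels. Alb, for serum albumin, was at 3.93, 7.75 and 13.8 FPKM after cryoablation and at 0, 0.205 and 0.178 FPKM after radiofrequency ablation (log2 fold change -2.94, SE 0.52, adjusted p = 0.0995). Apoa1, the main protein of HDL, was at 1.00, 3.52 and 3.50 FPKM against 0, 0 and 0.0265 FPKM (log2 fold change -1.77, SE 0.36, adjusted p = 0.106). Apoa2 had -1.46 (SE 0.28), Serpina3k -1.48 (SE 0.32), and Mup3, one of a family of near-identical urinary protein genes whose reads cannot be told apart with certainty, -1.62 (SE 0.35). The table has 19 liver genes, of which 12 were under the filter, and genes that passed it mainly through the cryoablation tumours had to differ. The median of the tested genes was -1.46, and with no filter it was -0.89. Taken with no filter, 18 of the 19 were lower in all 3 radiofrequency tumours than in any cryoablation tumour, beside 8.11% of all 26538 genes of the table, and the exception was Trf, for transferrin. Summed FPKM of the 19 was 36.0, 53.4 and 76.2 after cryoablation and 13.8, 27.3 and 26.8 after radiofrequency ablation, of which Trf and the acute-phase gene Hp held most in the radiofrequency tumours.

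In the separate tumours with anti-PD-1 the median of the tested liver genes was also under 0, at -0.70, but the summed FPKM of the 19 genes overlapped. The sums were 51.2, 55.9 and 42.0 after cryoablation plus anti-PD-1 and 58.9, 22.2 and 13.7 after radiofrequency ablation plus anti-PD-1. Alb was at 2.13, 10.2 and 0.554 FPKM after cryoablation plus anti-PD-1 and at 0.0766, 0.0625 and 0.128 FPKM after radiofrequency ablation plus anti-PD-1, with no overlap (log2 fold change -1.80, SE 0.52). With no filter, 10 of the 19 genes were lower in all 3 of these radiofrequency tumours than in any of the cryoablation tumours, beside 3.52% of the genes of the table. Another fit left out the 3 tumours of the study rich in hair follicle RNA, none of which belongs to the comparison without the antibody. The log2 fold changes of that comparison were unchanged, at -2.94 for Alb, and only the spread shared by the groups differed. Of the cryoablation plus anti-PD-1 tumours this fit kept only the third, so its calls are not read as support for the liver genes. Whether liver RNA came from the tumours' own cells or from other tissue was not tested.

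Red cell genes had the lowest median of tested genes after the liver list, -1.43, with no member at an unadjusted p under 0.05, and the radiofrequency tumours differed widely among themselves. Hbb-bs, a beta globin, was at 365, 258 and 418 FPKM after cryoablation and at 228, 21.6 and 484 FPKM after radiofrequency ablation (log2 fold change -1.33, SE 0.94). The second radiofrequency tumour lay far below the other tumours of both groups, and without it the list's median was -0.22. Without the third, the highest, the median was -2.37 and 5 of the 6 tested members had an unadjusted p under 0.05. Hba-a1, which has a near-identical copy, had -1.65 (SE 0.96) and Alas2, of haem synthesis, -1.08 (SE 0.60). Muscle genes had a median of -0.52 with no member at an unadjusted p under 0.05. Without the second radiofrequency tumour the median was -0.94 and 6 of 11 members were at that level, and without the first the median was -0.25. Acta1, skeletal actin, was at 4.84, 7.13 and 6.99 FPKM against 0.429, 9.36 and 1.23 FPKM. Skin genes overlapped, with Krt1 at 4.32, 7.97 and 8.40 FPKM against 2.92, 0.432 and 9.89 FPKM. The part of blood, muscle and skin in the other values was not tested.

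**Figure D4:**
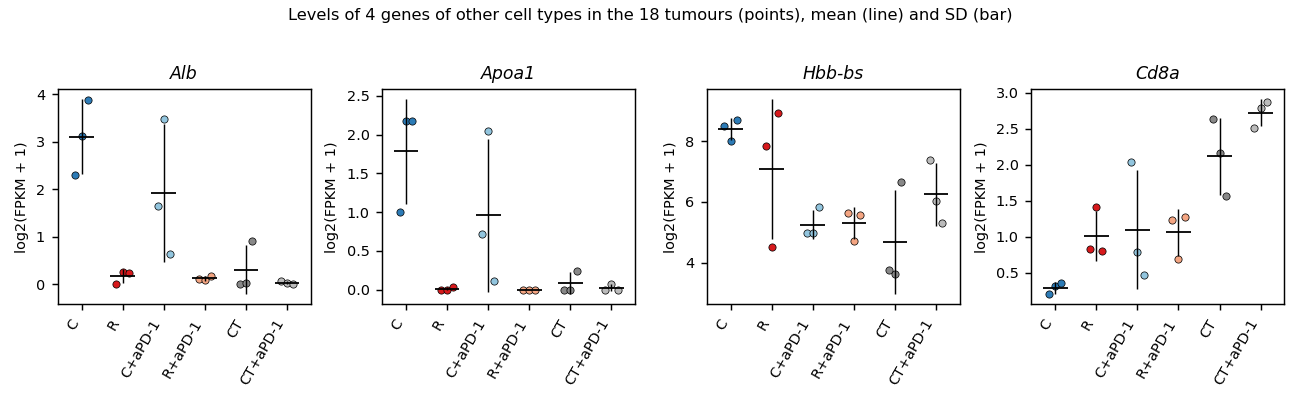
Log2(FPKM + 1) (vertical axes) of the liver genes Alb and Apoa1, the red cell gene Hbb-bs and the T cell gene Cd8a in each of the 18 tumours (points), with group mean (line) and SD (bar); group names are C for cryoablation, R for radiofrequency ablation, CT for cryo-thermal therapy and aPD-1 for the antibody. Alb and Apoa1 are near 0 in both radiofrequency groups and raised in the cryoablation tumours, Hbb-bs is lower in the second radiofrequency tumour than in the other radiofrequency and the cryoablation tumours and is also low in many tumours of the other groups, and Cd8a is lowest after cryoablation.

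Hypoxia and glycolysis genes, which the factor HIF1 raises when oxygen is short, had a log2 fold change above 0 in all 23 members and a median of 0.35 (0.21 without the first cryoablation tumour), but the groups were separate in 1 of them. The second cryoablation tumour lay among the radiofrequency tumours. Vegfa, the growth factor of blood vessels, was at 58.5, 108 and 56.7 FPKM after cryoablation and at 100, 99.3 and 147 FPKM after radiofrequency ablation (log2 fold change 0.67, SE 0.25). P4ha1, of collagen hydroxylation, had 0.55 (SE 0.19) and the glycolytic genes Pgk1, Pfkl and Hk2 had 0.35, 0.50 and 0.40. At an unadjusted p under 0.05 there were 10 of 23, and 21 without the second cryoablation tumour, 1 without the first or the third, 6 without the first radiofrequency tumour, and 0 without the third.

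Genes of the circadian clock's repressors and outputs had 4 of 12 members on the higher side at an unadjusted p under 0.05. The count was 7 without the second cryoablation tumour and 2 without the first cryoablation or the first radiofrequency tumour. Cry1, a repressor of the clock, was at 5.41, 4.46 and 5.26 FPKM after cryoablation and at 7.44, 6.90 and 8.39 FPKM after radiofrequency ablation (log2 fold change 0.51, SE 0.10, adjusted p = 0.106). Ciart, another repressor, was at 2.48, 3.94 and 1.63 FPKM against 4.44, 4.73 and 5.55 FPKM (log2 fold change 0.72, SE 0.20). Neither gene overlapped between the groups. Per3 had 0.22 (SE 0.10) and the output gene Dbp 0.41 (SE 0.15). Of the 12 members 11 had a log2 fold change above 0 and 1 had one under 0. In a separate list with 3 tested clock genes, Nfil3 had 0.41 (SE 0.14), Clock 0.07 and Bmal1 -0.05. The labels do not give the hour at which tumours were taken, and its part was not tested. Of 9 glucocorticoid targets and metallothionein genes 3 were on the higher side at an unadjusted p under 0.05 and none on the lower. The count of 3 was 0 without the third cryoablation tumour and 1 without the first cryoablation or the first radiofrequency tumour. The median was 0.00, with a range of -0.21 to 0.11 when any 1 of the 6 tumours was left out. The 3 genes of the full fit were the zinc exporter gene Slc30a1 (0.32) and the metallothionein genes Mt1 and Mt2, whose proteins bind metals. Mt1 was at 158, 303 and 142 FPKM against 372, 307 and 292 FPKM, and its groups overlapped. Mt2 was at 446, 640 and 444 FPKM against 951, 914 and 697 FPKM and did not overlap. The glucocorticoid targets Fkbp5 and Dusp1 had -0.41 each, with unadjusted p above 0.05.

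Lower in point estimate after radiofrequency ablation were genes of DNA replication, of immediate early response and of fibroblasts and matrix. Of 24 replication and division genes 23 had a log2 fold change under 0, with a median of -0.20, and 7 had an unadjusted p under 0.05. The third radiofrequency tumour had the lowest levels, and without it 1 gene did and the median was -0.05. The count was 2 without the third cryoablation tumour, 4 without the first, and 14 without the second radiofrequency tumour. Mcm6, of the helicase that opens DNA, was at 101, 97.0 and 104 FPKM after cryoablation and at 92.2, 85.8 and 72.2 FPKM after radiofrequency ablation (log2 fold change -0.27, SE 0.07, adjusted p = 0.152). Mcm7, Mcm2 and the cell cycle factor E2f1 each had -0.21. Fosb, an immediate early factor, was at 36.4, 15.4 and 11.9 FPKM against 8.70, 1.98 and 3.78 FPKM (log2 fold change -1.95, SE 0.62, adjusted p = 0.18). Of 19 immediate early genes 16 had a log2 fold change under 0, with a median of -0.28. At an unadjusted p under 0.05, 4 were on the lower side, Nr4a1 (-0.30) and Egr3 (-0.28) among them. At that level Myc alone was on the higher side, with 0.32. That count of 4 was 1 without the second cryoablation or the second radiofrequency tumour and 2 without the first cryoablation tumour.

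Of 21 fibroblast and matrix genes 19 had a log2 fold change under 0, with a median of -0.32. This median ran from -0.47 to -0.16 when any 1 of the 6 tumours was left out. At an unadjusted p under 0.05, 2 were on the lower side, and 8 without the third radiofrequency tumour. That count was 1 without the first cryoablation, the first radiofrequency or the second radiofrequency tumour and 0 without the third cryoablation tumour. Col5a2, a collagen chain, was at 49.0, 48.2 and 53.1 FPKM against 32.2, 31.6 and 47.2 FPKM (log2 fold change -0.45, SE 0.18), and Pdgfra, a receptor of fibroblasts, had -0.42 (SE 0.18). Of 80 cytosolic ribosomal protein genes 73 had a log2 fold change above 0, but the median was 0.08, and 0.01 after quantile normalization. Rpl28 was at 1102, 1264 and 1102 FPKM against 1382, 1418 and 1330 FPKM. Of 79 oxidative phosphorylation subunits 21 had a log2 fold change above 0 and 58 under 0, with a median of -0.06. At an unadjusted p under 0.05, 1 was on the higher and 4 on the lower side. The 4 became 9 without the second cryoablation tumour and 2 without the first radiofrequency tumour. Targets of p53 had a median of 0.04, with Cdkn1a, a cell cycle inhibitor, at 0.45 (SE 0.15). The medians were 0.01 for NRF2 targets, -0.09 for cholesterol synthesis and -0.07 for endothelium, with at most 1 member of each at an unadjusted p under 0.05, and 3 endothelial genes on the lower side without the third radiofrequency tumour. Each of these medians changed sign when single tumours were left out, with ranges of -0.04 to 0.14, -0.23 to 0.15 and -0.40 to 0.09.

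The contrast of the same ablations under anti-PD-1 uses 6 other tumours. No gene passed an adjusted p under 0.05 there with limma, and 736 genes (5.85%) had an unadjusted p under 0.05. Of the 1902 genes with an unadjusted p under 0.05 without the antibody 63.5% had the same sign with it, 72.6% of the 888 on the higher side and 55.5% of the 1014 on the lower side, beside 54.7% of all genes. Of the 3 cryoablation plus anti-PD-1 tumours the first and the second are rich in hair follicle RNA, and 12 keratinocyte and hair genes had a median of -1.48 in this contrast. Without them, with the third tumour assumed to vary like the other groups, the shares were 74.0% of the 1902 genes and 61.4% of all genes. In the full set the median log2 fold changes on the 2 sides were 0.33 and -0.26 without the antibody and 0.08 and -0.01 with it. The 2 sides were picked by p and sign in the contrast without the antibody, so its medians had to lie away from 0. The medians nearer 0 with the antibody therefore cannot be read as a smaller effect. With the antibody, 0.47 was the median for type I interferon genes, with 4 members on the higher side at an unadjusted p under 0.05, beside 3.82% of all genes. The median was 0.77 for interferon gamma genes and 0.19 for integrated stress genes, with 2 such members each. For Cxcl10 the log2 fold change with the antibody was 1.33 (SE 0.43) and for Gzmb 1.28 (SE 0.47).

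The difference between the contrasts, tested as an interaction, passed an adjusted p under 0.05 for no gene, with a smallest adjusted p of 0.591 in limma and 956 genes (7.6%) at an unadjusted p under 0.05. For 5430416N02Rik the log2 fold change was 0.75 without and 0.08 with the antibody (difference 0.67, unadjusted p = 6.5e-05). For Cry1 it was 0.51 and -0.21, for Hsph1 0.92 and -0.13, for Cystm1 0.76 and -0.27, for Pmaip1, a cell death gene, 0.78 and -0.26, and for the chaperone Hspa4l 0.24 and -0.31. On the other side, Fance, of DNA crosslink repair, had -0.24 without and 0.13 with the antibody, and Atp2b4, a calcium pump, -0.54 and 0.31. Cirbp had -0.64 and -0.09. At an unadjusted p under 0.05 the difference was positive for 9 of 26 heat shock, 8 of 33 integrated stress, 6 of 18 unfolded protein and 6 of 12 clock genes, beside 2.73% of all genes, and for 1 of 27 type I interferon and 0 of 26 interferon gamma genes.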

How the data were processed

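RNA of 18 untreated side tumours was sequenced, and the 6 tumours after cryoablation or radiofrequency ablation without antibody were compared. Per the labels' protocols, tissue was lysed in TRIzol, the RNA was treated with DNase on silica columns, and the VAHTS Universal V6 kit was used for the libraries. The values deposited by the authors are FPKM. Of their software only the counter HTSeq (0.11.2) appears in the submitters' processing notes, and no aligner, build, annotation or strand setting is given. The table holds no counts, so no count test was run and no interval needing depth is given; steps between low values gave depths of 0.977 to 1.013 times that of the first cryoablation tumour.

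Values were analysed as log2(FPKM + 1). Genes with a mean of at least 0.5 FPKM over 18 tumours (12587 of 26538) were fitted with limma 3.58.1 in R 4.3.3, with 1 mean for each of the 6 groups, variances moderated along a trend, and 2-sided tests adjusted by Benjamini and Hochberg over all genes of a contrast with a threshold of 0.05. SE is limma's. The fit was tested on simulated data. A count of genes whose groups do not overlap needs all 3 values of one group above all 3 of the other. Members and the 38 gene lists were chosen with earlier results of these data known. The named genes are every gene past the threshold, the 12 smallest p-values in each direction and the 6 with the largest change in each direction at an unadjusted p under 0.05 among those that do not overlap, up to 4 members of each list by p and 4 by level, 11 immune genes, and the 5 smallest p-values in each direction for the difference between the contrasts. Predicted genes, clones and receptor segments were left out of the rankings, and names outside this rule (Sec31a, Lin54, Tyr, Trf, Hp and motif holders) were chosen after their values were seen. Of the list entries 10 were not matched and are not analysed here, and 1 matched gene is not reported here. Promoter windows come from RefSeq (GRCm38.p6), matched by gene number. Alternatives were another pseudocount (0.1), no filter or one of 2 FPKM, median-ratio and quantile scaling, fewer groups, array weights, no trend, a replicate block, and fits without single tumours or without the 3 tumours rich in hair follicle RNA. Python 3.11.15 was used for the other steps.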

Additional observations from a re-analysis of the deposited data

How the results depend on the processing

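The single called gene of the comparison without antibody, 5430416N02Rik, kept its direction and its call in every alternative. The count of called genes stayed at 1 with a pseudocount of 0.1, a filter of 2 FPKM, both other scalings, the 2 groups alone and no variance trend. It was 3 with no filter (adding Gm33631 and Sds, both at low levels), 9 without the tumours rich in hair follicle RNA, 571 with array weights, of which 297 were higher and 274 lower, and 1 to 20 when single tumours were left out, the 20 without cryoablation replicate 2. The array weights did not converge and gave 1 tumour of the cryo-thermal plus anti-PD-1 group, outside the comparison, a weight of 39.7. With anti-PD-1 the count of 0 became 1 with no filter (Gm17546) and was 0 to 0 without single tumours. For the difference between the contrasts it became 2 with no filter and was 0 to 1 without single tumours: Cystm1 without cryoablation replicate 2, and 5430416N02Rik without radiofrequency plus anti-PD-1 replicate 3. The median of all genes moved by less than 0.1 on the log2 scale in each setting. Numbers were shared between groups. Across genes, deviations of same-numbered tumours from their group means had r of -0.01, -0.27 and -0.10 for cryoablation and radiofrequency ablation. With anti-PD-1 these were 0.15, 0.30 and -0.10. Deviations within a group of 3 depend on each other, so these values cannot settle whether the numbers pair the tumours. With a replicate block the counts of calls were 1, 0 and 0. Directions turned for Itgam, from 0.04 to -0.094 with array weights and to -0.11 to 0.13 without single tumours, for Ccl5, -0.81 to 0.073 without single tumours, and for Cxcl10, -0.030 to 0.33. List medians were mostly within the spread between tumours; the pseudocount of 0.1 moved those of lists with low genes further from 0, to 0.94 for T cells, 1.45 for MHC class II, 1.68 for type I interferon and -2.57 for liver genes, and no filter moved that of liver genes to -0.89.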
